A study of Homo sapiens with 8 samples.

Results

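Of the 86039 H3K27Ac regions that ROSE ranked on chromosomes 1 to 22 in 4 medulloblastoma (MB) lines, 4598 contained the transcription start site of at least 1 protein-coding gene. They were found by laying the regions of each line over the 19111 protein-coding gene starts of GENCODE 44 on GRCh38, where the start of a gene is the outermost end on its strand. MB002 had 1341 such start-containing regions among 25179 (5.33%), D425 had 1252 among 25632 (4.88%), HD-MB03 had 1036 among 15030 (6.89%) and UW228 had 969 among 20198 (4.80%). MB002, D425 and HD-MB03 (HDMB03 in the labels) are Group 3 MB (G3-MB) cell lines. UW228 carries the label SHH subtype and served the study as a non-G3 line. MB002 and HD-MB03 were grown in Tumor Stem Media, D425 and UW228 in DMEM with fetal bovine serum, and no treatment was given. A line was represented by 1 H3K27Ac and 1 input library, so there is no spread between replicates and every value describes the libraries. The header of the UW228 values carries a later date and another folder name than the headers of the G3-MB lines, and its subgroup and the way its values were made cannot be told apart. The depth of the libraries is unknown. Where 4 values stand in a row below, they follow the order MB002, D425, HD-MB03 and UW228, and 3 values are those of the G3-MB lines in that order.

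H3K27Ac, the acetylation of lysine 27 of histone H3, marks nucleosomes at active promoters and at active enhancers. An H3K27Ac peak alone therefore does not say which kind of element lies under it, and surveys of enhancers commonly leave out the peaks next to gene starts. ROSE drops peaks that lie within a set distance of an annotated start, stitches neighbouring peaks into enhancers and ranks these by signal, and the top of the ranking is called super-enhancers (SEs). A stitched enhancer can span a start even when no peak left in it touches that start.

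The promoters under these regions are shown first, since a start is what sets the regions apart. The 300 bases from 250 before to 50 after the start are given for 5 leading genes of 3 classes, those inside a region in all 3 G3-MB lines and not UW228 (*U2AF2*), those inside a region in UW228 and no G3-MB line (*VEPH1*, *TM4SF19*), and those inside a region in all 4 lines (*C6orf62*, *PRCC*). They were read from GRCh38 in the direction of transcription, and capitals mark CpG dinucleotides.
U2AF2 (plus strand, chr19:55653896-55654195): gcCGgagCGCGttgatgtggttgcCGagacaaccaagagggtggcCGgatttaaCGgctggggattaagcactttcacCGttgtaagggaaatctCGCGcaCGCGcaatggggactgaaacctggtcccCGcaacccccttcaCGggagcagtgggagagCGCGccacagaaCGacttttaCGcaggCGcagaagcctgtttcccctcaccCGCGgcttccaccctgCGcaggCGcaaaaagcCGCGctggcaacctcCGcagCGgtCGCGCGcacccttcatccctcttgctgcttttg
VEPH1 (minus strand, chr3:157533570-157533869): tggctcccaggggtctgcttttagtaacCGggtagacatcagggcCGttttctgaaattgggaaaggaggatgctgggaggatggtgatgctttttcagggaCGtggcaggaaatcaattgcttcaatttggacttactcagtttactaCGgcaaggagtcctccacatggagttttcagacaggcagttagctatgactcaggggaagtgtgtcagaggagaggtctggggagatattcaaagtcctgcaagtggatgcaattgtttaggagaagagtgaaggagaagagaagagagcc
TM4SF19 (minus strand, chr3:196338454-196338753): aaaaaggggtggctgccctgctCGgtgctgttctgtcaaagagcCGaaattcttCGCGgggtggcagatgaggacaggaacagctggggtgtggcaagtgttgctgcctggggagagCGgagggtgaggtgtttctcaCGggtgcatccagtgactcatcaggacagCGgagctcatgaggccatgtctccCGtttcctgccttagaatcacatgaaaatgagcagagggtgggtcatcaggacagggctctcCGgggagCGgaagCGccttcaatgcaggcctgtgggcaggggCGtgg
C6orf62 (minus strand, chr6:24720776-24721075): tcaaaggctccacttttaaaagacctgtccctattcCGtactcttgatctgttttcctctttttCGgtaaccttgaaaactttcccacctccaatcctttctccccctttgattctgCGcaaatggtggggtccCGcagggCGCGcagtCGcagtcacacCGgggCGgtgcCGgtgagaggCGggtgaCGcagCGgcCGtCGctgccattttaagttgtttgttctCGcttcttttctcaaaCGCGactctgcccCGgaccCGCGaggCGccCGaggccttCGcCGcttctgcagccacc
PRCC (plus strand, chr1:156750360-156750659): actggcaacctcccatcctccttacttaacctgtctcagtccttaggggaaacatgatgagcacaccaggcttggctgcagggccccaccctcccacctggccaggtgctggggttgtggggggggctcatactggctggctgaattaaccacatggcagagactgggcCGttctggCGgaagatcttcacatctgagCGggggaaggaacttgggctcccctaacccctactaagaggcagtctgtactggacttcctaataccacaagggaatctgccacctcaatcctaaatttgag

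*U2AF2*, which encodes a subunit of the factor that recognises the polypyrimidine tract in pre-mRNA splicing, had 29 CpGs in this window and a GC content of 62.3%. *C6orf62* had 25. *VEPH1* had 4, *TM4SF19* had 12 and *PRCC* had 3. The *PRCC* start is the outermost transcript end of the gene, and its window held few CpGs although its region had a high density in every line. These 5 are single examples. Over all 19111 starts, 58.8% had an observed over expected CpG ratio above 0.6. The share was 67.6% for the 241 starts in all 3 G3-MB lines and not UW228 (1.26% of all starts), 65.0% for the 123 starts in all 4 lines (0.644%) and 56.7% for the 667 starts in UW228 alone (3.49%). Over all the starts inside a region of a line it was 66.1%, 58.7%, 68.2% and 59.2%, so D425 lay beside UW228 and all starts. D425 and UW228 were also the lines grown with serum, and the part of the medium was not tested.

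Short motifs were counted on both strands of the same windows, and none of them is contained in another. TAATCC, the core of the sites bound by OTX2 and CRX, the homeodomain factors of G3-MB, was present in 12.9% of the 241 G3-MB starts, in 7.83% of all starts and in 6.45% of the UW228 starts. It was also present in 4.88% of the starts in all 4 lines. Over all the starts inside a region of a line it was present in 9.48%, 8.68%, 6.81% and 6.22%, so HD-MB03 lay below all starts, and the higher share held for the class of 241 and not for each G3-MB line. CACGTG, the E-box bound by MYC, was present in 12.9% of the G3-MB starts, 8.24% of all starts and 8.10% of the UW228 starts. TGANTCA, the AP-1 site, was present in 9.75% of the UW228 starts, 5.81% of the G3-MB starts and 6.38% of all starts. Over all the starts inside a region of a line TGANTCA was present in 5.50%, 6.88%, 5.41% and 8.98%, so D425 lay above all starts. GGGCGG, an Sp1 motif, was present in 63.1% of the G3-MB starts, 48.4% of the UW228 starts and 52.6% of all starts. CCAAT was present in 31.1% of the G3-MB starts, 38.8% of the UW228 starts and 35.6% of all starts. TATAAA was present in 6.22% of the G3-MB starts, 9.60% of the UW228 starts and 10.9% of all starts. By line TATAAA was present in 10.2%, 9.79%, 8.78% and 10.2% of the starts inside a region, so MB002 lay beside UW228. The starts in all 4 lines had 7.32% for CACGTG, 4.88% for TGANTCA, 60.2% for GGGCGG, 36.6% for CCAAT and 12.2% for TATAAA, so they were the highest of the 3 classes for TATAAA and close to the G3-MB starts for GGGCGG. A match to such letters is a description of the window and does not show that a factor was bound. The G3-MB windows had a median GC content of 65.3%, the UW228 windows 58.7% and all windows 60.3%.

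Regions that contained a start were long. Their median length was 13680 bp for MB002, 16271 bp for D425, 9704 bp for HD-MB03 and 16371 bp for UW228. The other regions of the same lines had medians of 1425, 1142, 1230 and 2064 bp. The start-containing regions were thus 9.60, 14.2, 7.89 and 7.93 times as long at the median. On the log2 scale the difference was 3.27 ± 0.40 (SD, n = 4 lines), positive in 4 of 4 lines, with p = 0.125 in an exact two-sided sign-flip permutation test over the lines, which is the smallest p that 4 lines allow. A long region has more room to hold a start, and the methods removed peaks near promoters, so length was not independent of how these regions were chosen.

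The start-containing regions were mostly stitched from several peaks. In MB002, 79.7% of them held 2 or more peaks, against 50.1% of the other regions. In D425 the shares were 84.4% and 49.2%, in HD-MB03 61.5% and 36.1%, and in UW228 89.2% and 48.0%. The mean difference was 32.9 percentage points ± 6.82 (SD, n = 4 lines, exact sign-flip permutation p = 0.125). Among the 10000 highest ranked regions of each line it was 4.90 (exact sign-flip permutation p = 0.375). Among regions of 2 to 20 kb the direction turned, and start-containing regions had a share of several-peak regions 12.7 percentage points below that of the others (−12.7 as start-containing minus other, exact sign-flip permutation p = 0.25). HD-MB03 stood out with 399 start-containing regions of 1 peak (38.5%), while UW228 had 105 (10.8%).

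The H3K27Ac signal was taken as the deposited signal minus input, floored at 0, and is a sum over the length of the region. Its median in start-containing regions was 11083 for MB002, 10593 for D425, 11898 for HD-MB03 and 11215 for UW228, a narrow range over the lines. The other regions had medians of 794, 641, 732 and 1534, so that the other regions of UW228 had the highest median. The log2 difference was 3.69 ± 0.55 (SD, n = 4 lines, exact sign-flip permutation p = 0.125).

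**Figure D1:**
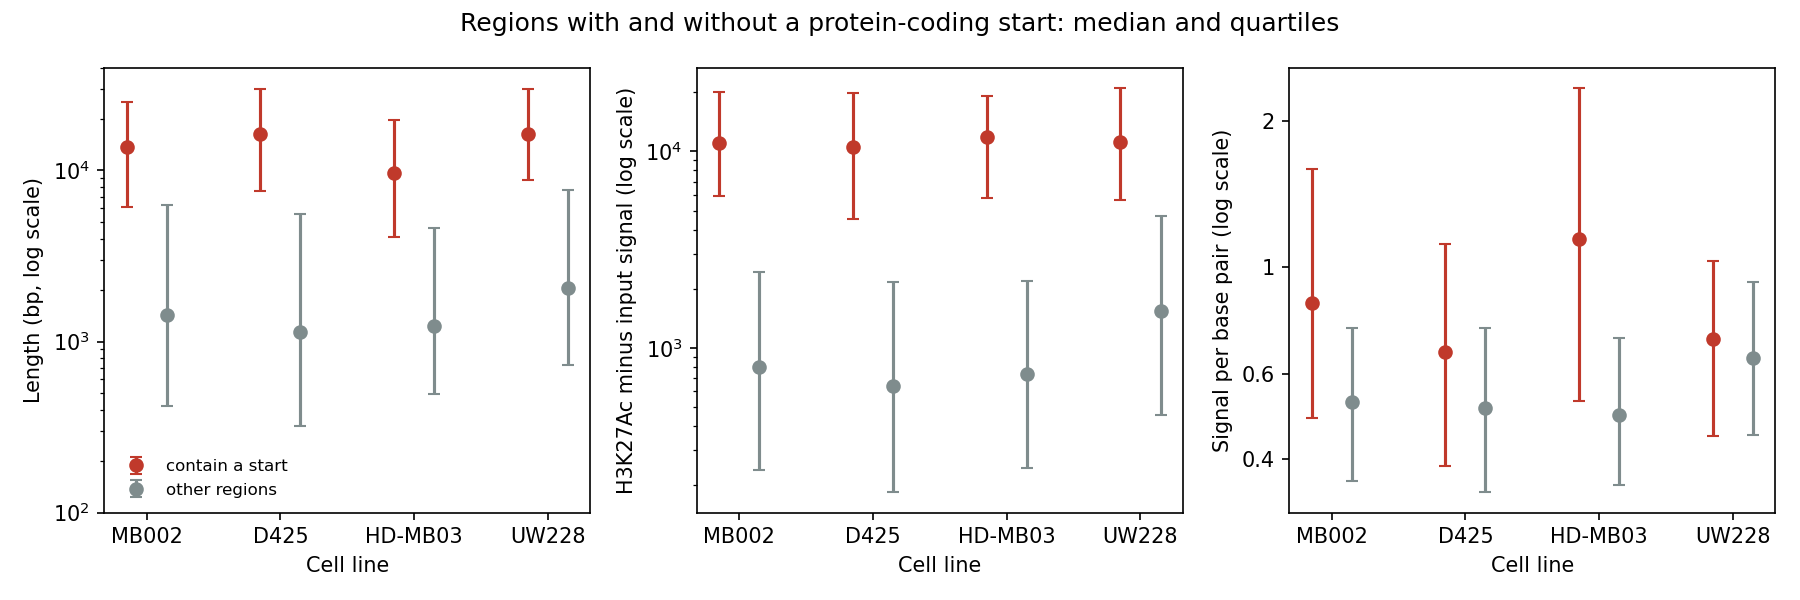
Median (point) and quartiles (bars) over regions of length in bp, of H3K27Ac minus input signal, and of signal per base pair, on log axes, for regions that contain a protein-coding start (red) and other regions (grey) in each line. Length and signal of the start-containing regions lie about an order of magnitude above those of the others, while signal per base pair differs less and in UW228 hardly (0.709 against 0.649).

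Divided by length, the signal differed less, and by an amount that varied between the lines. Signal per base pair had a median of 0.840 in the start-containing regions of MB002 against 0.525 in the others, a ratio of 1.60. In D425 it was 0.666 against 0.511 (ratio 1.30), and in HD-MB03 1.14 against 0.494 (ratio 2.31). UW228 had 0.709 against 0.649, a ratio of 1.09. The log2 ratios were 0.68, 0.38, 1.21 and 0.13, with a mean of 0.60 ± 0.46 (SD, n = 4 lines, exact sign-flip permutation p = 0.125), so UW228 lay below each of the 3 G3-MB lines. Without HD-MB03 the mean was 0.40. It was 0.28 with the starts of all protein-coding transcripts and 0.17 with those of all gene types.

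Within the classes of length from 2 to 20 kb the separation was wider than over all regions in each line. On average over the lines, start-containing regions of 2 to 20 kb were also less often of several peaks (−12.7 percentage points, start-containing minus other). Classes of length thus do not match the number of peaks, and its part in the densities was not tested. Among regions of 5 to 10 kb, the start-containing regions of MB002 had a median density of 1.44 against 0.343 for the others, those of D425 0.829 against 0.316, and those of HD-MB03 1.92 against 0.333. The UW228 regions of that length had 0.849 against 0.634. As log2 ratios these were 2.07, 1.39, 2.53 and 0.42. Among regions of 2 to 5 kb they were 1.72, 1.93, 1.97 and 0.38. Above 50 kb the log2 ratios were 0.41 for MB002, 0.41 for D425, 0.57 for HD-MB03 and 0.13 for UW228. The input density of the 5 to 10 kb classes, relative to the median of the line, lay between 0.886 and 1.18 in start-containing regions and between 1.01 and 1.05 in the others. UW228 held the lowest of the former values. The smallest classes were thin, with 10 start-containing regions under 1 kb and 16 of 1 to 2 kb in UW228.

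**Figure D2:**
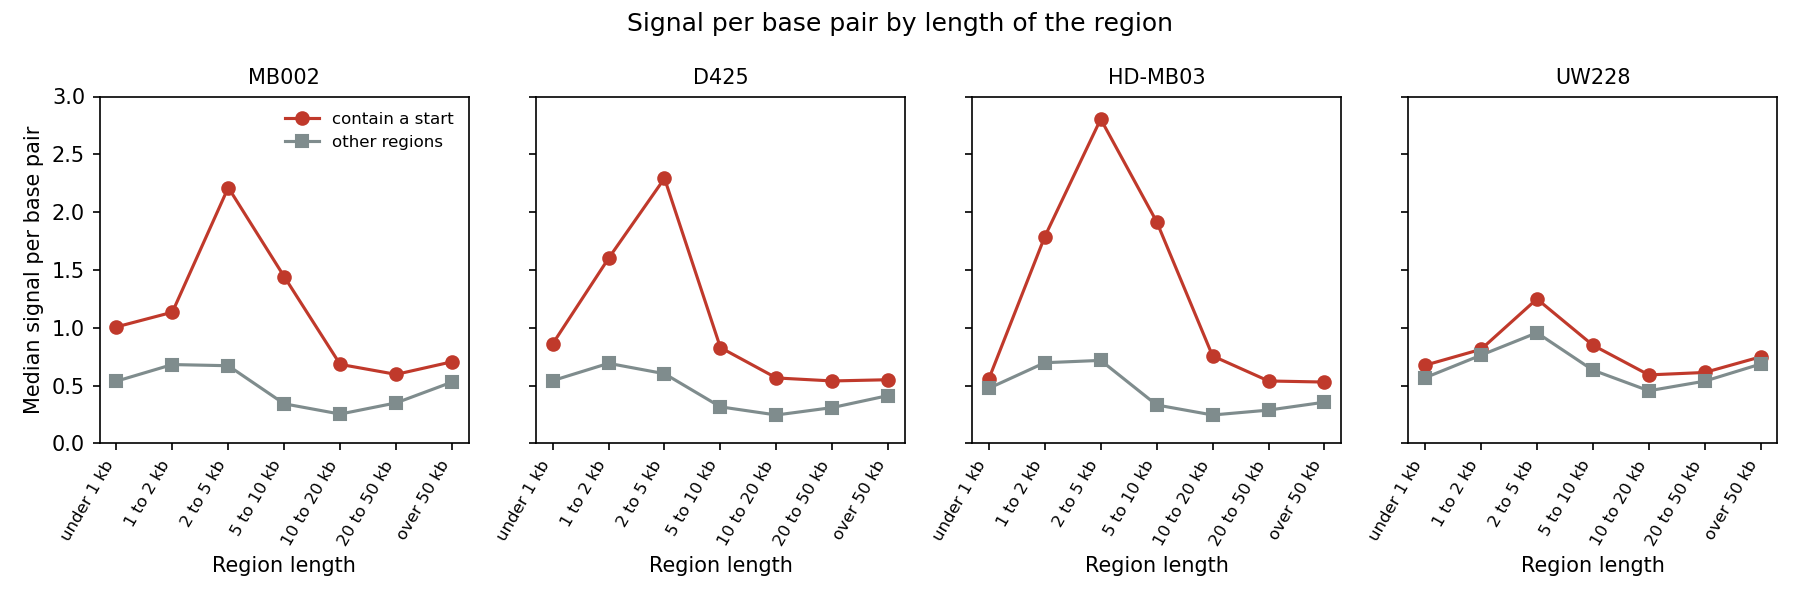
Median H3K27Ac minus input signal per base pair by region length for regions that contain a start (red circles) and other regions (grey squares), 1 panel per line. The start-containing regions of the G3-MB lines peak at 2 to 5 kb (2.21, 2.29 and 2.80), where UW228 reaches 1.25, and the red and grey lines of UW228 run close to each other.

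Regions made of a single peak, which hold no gap between peaks, were compared separately. In MB002, 272 start-containing peaks had a median density of 2.29 and a median length of 3672.5 bp, while 11905 other peaks had a density of 0.593 and a length of 421 bp. In D425 the densities were 2.12 and 0.579, in HD-MB03 2.61 and 0.555, and in UW228 1.45 and 0.703. The log2 ratios were 1.95, 1.87, 2.23 and 1.05. In UW228 the peaks at starts were less dense than in any G3-MB line, and the other peaks denser. For regions of 2 or more peaks the log2 ratios were 0.68, 0.47, 0.91 and 0.15.

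These peaks also lay in sequence richer in CpG. The median observed over expected CpG ratio of start-containing 1-peak regions was 0.605 for MB002, 0.638 for D425 and 0.676 for HD-MB03. In UW228 it was 0.352. The other 1-peak regions had medians of 0.195, 0.210, 0.210 and 0.190. GC content was 54.6%, 60.1%, 56.8% and 46.4% in the start-containing peaks, and 46.5%, 49.0%, 46.9% and 41.0% in the other peaks. UW228 was lowest in GC content in both sets. The part of base composition in the signal densities was not tested.

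SE calls were common among the start-containing regions. In MB002, 159 of the 1341 (11.9%) were SEs, against 1.4% of all regions, and in D425 205 of 1252 (16.4%) against 1.67%. In HD-MB03 they were 167 of 1036 (16.1%) against 2%, and in UW228 202 of 969 (20.8%) against 3.66%. Of the regions without a start, 0.814%, 0.911%, 0.950% and 2.80% were SEs. The difference between the shares was 14.9 percentage points ± 2.90 (SD, n = 4 lines, exact sign-flip permutation p = 0.125). The SE call follows the summed signal, and so it carries the length of the regions with it. The difference was 4.68 percentage points among regions of 1 peak and 4.77 among regions of 2 to 20 kb. Within the class of 20 to 50 kb, 17.6% of the start-containing and 6.14% of the other regions of MB002 were SEs. The shares were 21.6% and 6.57% for D425, 26.2% and 7.91% for HD-MB03, and 30.7% and 23.3% for UW228. The start-containing regions thus exceeded the others at this length in each line, by least in UW228.

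Viewed from the ranking, start-containing regions were concentrated at its top. Of all regions they made up 5.33%, 4.88%, 6.89% and 4.80%. Of the 1000 highest ranked regions they made up 405 for MB002, 426 for D425, 525 for HD-MB03 and 253 for UW228. Among the 100 highest they were 41, 54, 51 and 33. Among the 5000 lowest they were 8, 5, 16 and 6. In HD-MB03, 7 of the 10 highest ranked regions contained a start, and 4 of 10 did in each of the other lines. The rank follows the summed signal, and so it carries the length of the regions with it.

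The start-containing regions held 26.7% of the summed signal of MB002 on 16.6% of the length of its regions, 25.1% on 18.4% for D425, 32.3% on 18.7% for HD-MB03 and 16.7% on 15.5% for UW228. The share of signal was 11.4 percentage points higher over the G3-MB lines than in UW228, with the G3-MB lines between 25.1% and 32.3%. An exact two-sided permutation test of the 3 G3-MB lines against UW228 gave p = 0.25, the smallest p it allows. UW228 is 1 line with no spread of its own, so the test cannot tell a subgroup from a line, and the difference is a description of these 4 lines. Among regions of 1 peak the difference was 20.1 percentage points. Without the regions whose input density was at least 5 times the median of the line, the shares were 25.4%, 25.6%, 32.3% and 16.7%. The share of regions that contained a start was 0.90 percentage points higher over the G3-MB lines than in UW228 (exact permutation p = 0.5). It was 0.31 without HD-MB03, 0.13 with the starts of all gene types, 3.74 among regions of 2 to 20 kb, and −0.66 when regions within 1 kb of a start were counted in (exact permutation p = 0.75). The size of this difference thus rested largely on HD-MB03, and its direction depended on the distance at which a region was counted.

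Next, the regions around the starts were examined. Of the other regions of UW228, 173 ended less than 0.5 kb from a start and 281 between 0.5 and 1 kb. MB002 had 142 and 59, D425 130 and 54, and HD-MB03 56 and 25. Regions less than 0.5 kb from a start had median densities of 0.892 for MB002, 0.847 for D425, 0.623 for HD-MB03 and 0.982 for UW228. Regions more than 50 kb away had 0.510, 0.499, 0.507 and 0.656. Density was thus higher next to a start than far from it in each of the 4 lines. In MB002, D425 and UW228 the regions less than 0.5 kb from a start also had a higher median than the start-containing regions as a whole (0.840, 0.666 and 0.709), and in HD-MB03 a lower one (1.14). Just inside and just outside the rule the values were close. Start-containing regions whose start lay less than 100 bp from the edge numbered 46, 51, 33 and 22, with median densities of 1.09, 1.04, 0.956 and 1.03. Regions that ended less than 100 bp from a start numbered 47, 47, 22 and 23, with densities of 0.896, 1.09, 0.875 and 0.915.

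Most start-containing regions held 1 start. The share with 1 start was 84.3% for MB002, 86.3% for D425, 85.0% for HD-MB03 and 85.0% for UW228. Regions with 3 or more starts numbered 25, 16, 22 and 10, and the largest number of starts in a region was 5, in MB002. Among regions with 2 starts, divergent pairs, in which neighbouring genes are transcribed away from each other, numbered 74, 57, 57 and 52, of which 47, 29, 36 and 31 were less than 1 kb apart. Regions with 2 or more starts had higher median densities than regions with 1 start in each line. The medians were 1.03 against 0.812 for MB002, 0.719 against 0.646 for D425, 1.47 against 1.05 for HD-MB03 and 0.735 against 0.697 for UW228.

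Most peaks at starts extended further into the gene than upstream of it. Of regions with 1 peak and 1 start, 163 of 231 in MB002 (70.6%) extended further downstream than upstream of the start. The shares were 122 of 171 for D425 (71.3%), 251 of 340 for HD-MB03 (73.8%) and 59 of 89 for UW228 (66.3%). The median extent was 774 bp upstream and 2131 bp downstream for MB002, 537 and 1080 bp for D425, 856 and 2191 bp for HD-MB03, and 674 and 2034 bp for UW228. In stitched regions with 1 start the shares were 54.5%, 53.4%, 59.0% and 54.6%, so they lay more evenly around it. The start used is the outermost end of the gene, so a peak at an inner transcript start lies downstream of it by definition. The methods also removed peaks near promoters, so the peaks left were not independent of their extent. The part of either in these shares was not tested.

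The methods exclude 2.5 kb on either side of a promoter, and the same regions were set against that window. In MB002, 96 of the 231 passed it downstream only, 31 upstream only and 9 on both sides, while 95 lay wholly within it. In D425 these numbers were 37, 18, 6 and 110 of 171. In HD-MB03 they were 151, 41, 7 and 141 of 340, and in UW228 38, 14, 1 and 36 of 89. Of the regions wholly within the window, 54, 55, 56 and 22 contained no start in RefSeq, whose gene models differ from those of GENCODE. The other 41, 55, 85 and 14 did contain one. Which annotation the authors used for the exclusion is not given in the sources used here. Because peaks near promoters were left out, a start that lay in no region may still carry H3K27Ac, and the numbers below count deposited regions, not active promoters.

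**Figure D3:**
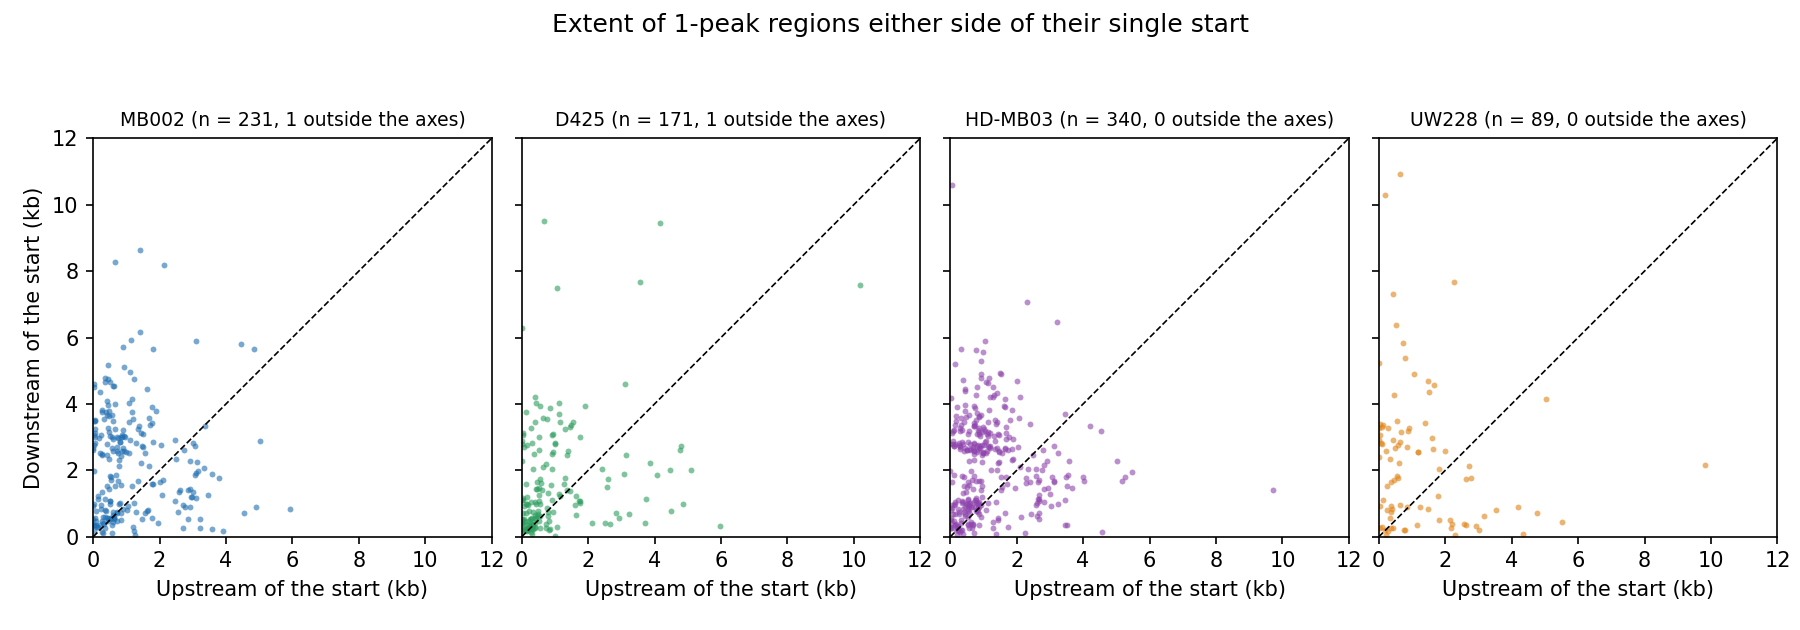
Extent in kb upstream (horizontal axis) and downstream (vertical axis) of the start for each region with 1 peak and 1 start, 1 point per region and 1 panel per line. The dashed line marks equal extent, and 66.3% to 73.8% of the points lie above it.

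The regions covered 1583 of the 19111 starts for MB002 (8.28%), 1440 for D425 (7.53%), 1219 for HD-MB03 (6.38%) and 1125 for UW228 (5.89%). In all, 3573 starts lay in a region of at least 1 line, 2358 of them in 1 line. MB002 shared 602 starts with D425, 38.0% of its own and 41.8% of those of D425. It shared 620 with HD-MB03, 39.2% of its own and 50.9% of those of HD-MB03. D425 and HD-MB03 shared 478, 33.2% and 39.2%. UW228 shared 272 with MB002, 283 with D425 and 241 with HD-MB03, which were 24.2%, 25.2% and 21.4% of its own and 17.2%, 19.7% and 19.8% of theirs. Each G3-MB line thus shared a larger share of its starts with either of the other G3-MB lines than with UW228.

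Starts inside a region in all 4 lines numbered 123 (0.644% of all starts), those in all 3 G3-MB lines and not UW228 numbered 241 (1.26%), and those in UW228 and no G3-MB line 667 (3.49%). Without D425 the second number was 461 and without HD-MB03 450, and 364 starts were in all lines without UW228. MB002 alone had 641, D425 alone 620 and HD-MB03 alone 430. The class that asks for 3 lines is narrower by construction than the class that asks for 1, so the sizes of the classes are not a measure of how many starts each subgroup marks. Of the 241 starts, 28 had a UW228 region within 1 kb and 60 within 2.5 kb. Of the 667, 14, 10 and 6 had a region of MB002, D425 and HD-MB03 within 1 kb, and 44, 51 and 21 within 2.5 kb.

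Starts covered in all 4 lines lay in denser regions than starts covered in a single line, by least in UW228. At the 123 starts in all 4 lines the median density was 1.16 for MB002, 1.02 for D425, 1.34 for HD-MB03 and 0.743 for UW228. At the starts held in a single line it was 0.766 for MB002, 0.529 for D425, 1.07 for HD-MB03 and 0.722 for UW228. UW228 had the lowest density of the 4 lines at 55 of the 123 starts, and at 65 when each line was divided by the median of its other regions. HD-MB03 had the highest at 52 and 62. Relative input density at these 123 starts was 1.03, 1.26, 0.991 and 0.777, lowest in UW228, and its part in the order of the lines was not tested.

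The 10 genes of highest mean density in all 3 G3-MB lines and not UW228 were led by *U2AF2*, which had a density of 3.99 for MB002 (rank 1140), 5.26 for D425 (rank 817) and 3.58 for HD-MB03 (rank 390), and was an SE in none of them. Its MB002 region, of 1 peak, was chr19:55653889-55657917 and its D425 region chr19:55653242-55656646. *RPL23A*, a protein of the large ribosomal subunit, had 3.71, 3.41 and 3.87. *RPN1*, a subunit of the complex that transfers glycans to new proteins in the endoplasmic reticulum, had 2.74, 4.42 and 4.47 in regions of 1 peak. In each of these genes the 3 lines lay within a factor that was smaller than 2.

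*RC3H1*, which encodes the RNA-binding protein roquin that promotes mRNA decay, ranged more widely, with 1.49 for MB002, 2.92 for D425 and 7.75 for HD-MB03. *DNAAF2*, a gene for the assembly of ciliary dynein arms, had 3.13, 3.92 and 5.64. For both, HD-MB03 was the highest line and the only line with an SE call (rank 172 for *RC3H1* and 281 for *DNAAF2*).

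Of these 10 genes, *BRD2* and the *HLA-DMA* gene beside it had an SE in each G3-MB line. *BRD2* encodes a bromodomain protein of the BET family, the readers of acetylated histones that BET inhibitors displace. The region had a density of 2.81 for MB002 (rank 261), 2.57 for D425 (rank 168) and 6.04 for HD-MB03 (rank 89), and *HLA-DMA* serves antigen loading on MHC class II. *SPESP1* and *ANP32A*, on opposite strands, shared a region with 2.52, 4.87 and 3.88. *PANO1* had 4.40, 3.06 and 3.68. The starts of these 10 genes lay in no region of UW228.

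The 10 genes of highest density in UW228 and no G3-MB line lay within a narrow band. *VEPH1*, a gene first described in the ventricular zone of the developing brain, had 3.27 in a region of 2 peaks, chr3:157525691-157534965, that was an SE (rank 528). The others had densities from 2.59 to 2.68 in regions of 1 peak, and none of them was an SE. They were *TM4SF19* with the readthrough gene *TM4SF19-DYNLT2B*, *TUBB* (a beta tubulin) with *MDC1* (a DNA damage response protein), *TLR4* (the receptor of bacterial lipopolysaccharide) with ENSG00000285082, *WDR81*, *TUSC3* and *LPXN* (leupaxin, a focal adhesion protein).

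From the starts inside a region in all 4 lines, the 10 genes with the highest density in their lowest line were taken. *C6orf62* led them, with 3.83 for MB002, 4.05 for D425, 4.50 for HD-MB03 and 2.57 for UW228, where its region was chr6:24720439-24723376. *ZMYND8*, a reader of acetylated and methylated histones, had 4.14, 1.82, 2.49 and 1.70 and was an SE in all 4 lines, at ranks 208, 183, 274 and 16. *IRF2BP2*, a transcriptional corepressor, was also an SE in all 4 lines, with densities of 1.32, 1.22, 2.21 and 1.94. The region shared by *SKIDA1* and *MLLT10*, on opposite strands, was the third of those named with an SE call in each line, with 1.19, 1.21, 2.11 and 1.34.

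*SOX4*, a transcription factor of neural and other progenitors, had 1.99, 2.92, 3.17 and 0.991, with SE calls in D425 and HD-MB03. *MEF2D*, a transcription factor of neurons and muscle, had 3.12, 1.93, 1.18 and 1.56. *PRCC* had 2.38, 1.83, 2.95 and 3.79 and was the gene of these 10 in which UW228 was highest. Over the 123 starts, UW228 was the highest line at 20. *CHD8*, a chromatin remodeller, had 1.40, 1.98, 2.07 and 1.32, and the histone gene *H2BC6* had 2.02, 1.60, 1.13 and 1.14. UW228 was the lowest line for *C6orf62*, *ZMYND8*, *CHD8* and *SOX4*.

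**Figure D4:**
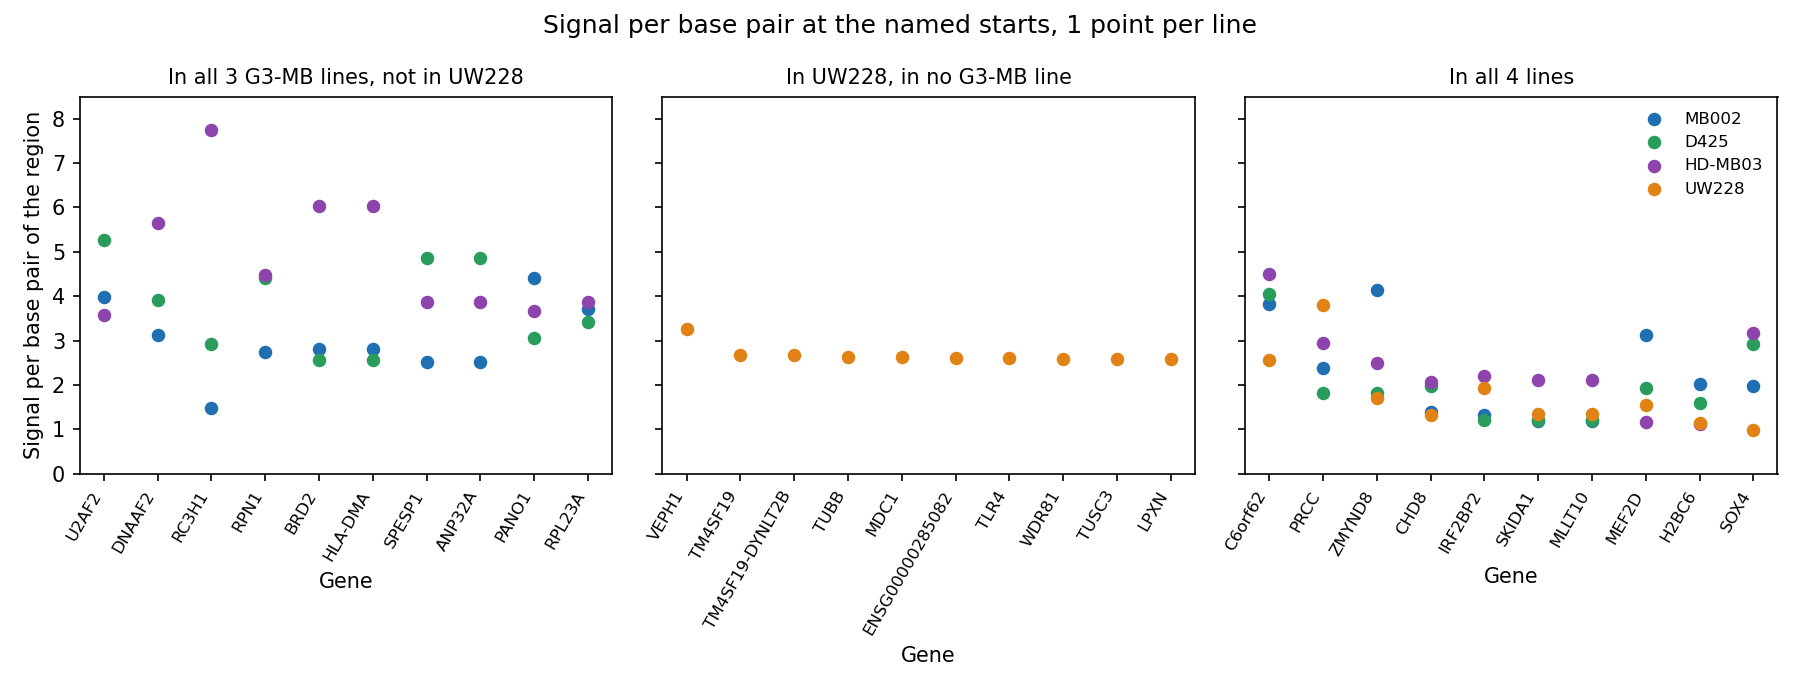
H3K27Ac minus input signal per base pair of the region that contains the start, for the 10 genes of highest density in each of 3 classes, 1 point per line, and genes that share a region have the same values. The genes of the G3-MB lines range from 1.49 to 7.75, those of UW228 from 2.59 to 3.27, and those in all 4 lines from 0.991 to 4.50.

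Of 13 genes that the study named vital SE-associated genes, 6 had their start inside a region of at least 1 G3-MB line, against 15.2% of all starts, and none in UW228. The study drew these genes from those it linked to SEs of G3-MB lines, by expression and tumour dependency, so the count is not independent of that choice. *KIF21B*, a kinesin, was covered in all 3 G3-MB lines, with signals of 84179 for MB002, 20761 for D425 and 62493 for HD-MB03 and ranks of 42, 651 and 26. Its region was an SE in MB002 and HD-MB03. *IGF2BP3*, an RNA-binding protein of fetal and tumour tissue, was covered in all 3 as an SE, with signals of 44264, 36915 and 51212. *CRX*, the cone-rod homeobox factor of photoreceptors, was covered in MB002 (66842) and D425 (55984) by SEs of 78.1 and 79.0 kb that contained 3 starts. *LRP8*, a reelin receptor, was covered in MB002 by an SE of rank 215, and in HD-MB03 3 of its 18 transcript starts lay in regions, the best of them of rank 267. Both *CRX* regions were stitched, from 20 and 15 peaks.

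*MYC* was covered in MB002 (rank 14) and D425 (rank 7), in D425 by a region of 1 peak with a density of 40.1. *OTX2* was covered in MB002 (rank 3) and HD-MB03 (rank 5). Input moved with these values. Relative input density was 23.8 and 62.8 at the *MYC* start in MB002 and D425, and 35.2 and 5.84 at the *OTX2* start in MB002 and HD-MB03, and its part in the H3K27Ac signal was not tested. The *OTX2* start of GENCODE lay outside the D425 regions, but 5 of the 8 starts of its protein-coding transcripts lay inside regions of D425, the best of them of rank 3. *SSBP3*, *BMF*, *AUTS2*, *KLHL29*, *MARS1*, *PSMB5* and *SDK2* had their start in no region. With the starts of all their protein-coding transcripts, *AUTS2* was reached in all 3 G3-MB lines (10, 3 and 4 of 15 starts) and *SSBP3* in HD-MB03 and UW228 (1 of 6 each). *IGF2BP3* was also reached in UW228, with 1 of 2 starts in a region of rank 2357. No transcript start of *BMF*, *KLHL29*, *MARS1*, *PSMB5* or *SDK2* lay in a region. Whether the peaks at these starts were left out with the promoters was not tested.

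The 3 start-containing regions of highest signal in each line differed widely in input. The leading 3 of MB002 were those of *SLC35F4* (rank 1), *OTX2* (rank 3) and *ACTR10* (rank 8), with relative input densities of 46.4, 35.2 and 32.3. Those of HD-MB03 were *POU5F1B* (rank 1, relative input density 119), *PELI2* (rank 4, 4.77) and *OTX2* (rank 5, 5.84). D425 had the region of *ENAH* and *SRP9* at rank 4, with 71 peaks over 184.6 kb and a relative input density of 1.02, that of *BCL2L1*, an inhibitor of apoptosis, at rank 5 (1.67), and *MYC*. In UW228 the leading 3 were those of ENSG00000258989 (rank 1, 1.04), *GRAMD2B* (rank 3, 1.28) and *TRAM2* (rank 5, 1.33). None of these 3 regions of UW228 had high input.

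Start-containing regions were then read by cell type markers and pathways. Genes of mesenchyme and extracellular matrix had their start inside a region for 7 of 12 in UW228, for 1 in D425 and for none in MB002 and HD-MB03. Those of UW228 included *CAV1*, *COL1A2*, *COL3A1*, *COL5A1*, *FN1* and *THBS1*. *COL3A1*, a fibrillar collagen, had a density of 2.57 in a region of 1 peak that was an SE, and *FN1*, fibronectin, had 1.49. *COL5A1* had the lowest, 0.353.

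Of YAP and TEAD genes, a start lay inside a region for 4 of 12 in UW228 (*ANKRD1*, *CCN1*, *CCN2*, *WWTR1*), 3 in D425 (*AJUBA*, *AMOTL2*, *ANKRD1*) and none in MB002 or HD-MB03. *ANKRD1*, a target of YAP, had a density of 1.33 in UW228 and 0.978 in D425. D425 and UW228 were the lines grown with serum, and the part of the medium was not tested. Among 11 AP-1 genes, MB002 covered 2, D425 1, HD-MB03 4 and UW228 3. *JUNB* was covered in all 4 lines, with 2.54, 2.44, 4.18 and 0.614, and *FOSL2* in HD-MB03 (4.15) and UW228 (0.728).

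Photoreceptor genes were covered in the G3-MB lines, with 5 of 10 for MB002 (*CRX*, *IMPG2*, *PDE6H*, *RBP3*, *SAG*), 3 for D425 and 2 for HD-MB03, and with none for UW228. *RBP3*, the retinoid-binding protein of the space between photoreceptors and pigment epithelium, was covered in each of the 3, with 0.545, 1.60 and 0.737. *SAG*, the arrestin of rods, had 1.05 in MB002. Of 13 transcription factors of the rhombic lip and G3-MB, MB002 covered 5 (*GFI1B*, *MYC*, *NEUROD1*, *OTX2*, *ZIC4*), D425 and HD-MB03 2 each and UW228 none. *ZIC4* had 0.573 in MB002 and 0.388 in D425, the lowest of them. MB002 covered the most genes of both lists.

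The basic helix-loop-helix and HES genes were covered more evenly, with 5 of 16 for MB002, 8 for D425, 6 for HD-MB03 and 3 for UW228. *HES1*, a target of Notch, and *ID3*, an inhibitor of such factors, were covered in all 4 lines. *ID1* had 5.21 for D425, 3.48 for HD-MB03 and 0.820 for UW228, and *NHLH1*, a neuronal factor, had 2.36, 0.732 and 1.01 in the G3-MB lines. Of 11 Hedgehog genes, *GLI1*, a transcription factor and target of the pathway, was covered in the 3 G3-MB lines (0.900, 1.38 and 1.42) and not in UW228, the line labelled SHH. The *GLI1* regions of MB002 and HD-MB03 each contained 2 protein-coding starts, so their densities are not those of *GLI1* alone. UW228 covered *GLI3* (0.219) and MB002 also *GLI2* (0.877). Of the Hedgehog genes, *PTCH1*, *SMO* and 6 others had their start in no region of any line.

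Lists of genes that most cells use were counted in the same way. Of 80 cytosolic ribosomal protein genes, MB002 and HD-MB03 covered 15 each, or 18.8%, and D425 and UW228 4 each, or 5%. MB002 and HD-MB03 were also the lines grown in Tumor Stem Media, and line and medium cannot be told apart. *RPL21* was the gene covered in all 4 lines. Of 14 genes of the 20S proteasome, MB002 covered 1 (*PSMB3*, density 3.58), D425 none, HD-MB03 1 (*PSMA1*, 3.04) and UW228 2. Of 16 splicing factors, the counts were 7, 3, 3 and 2, with *HNRNPU* at 3.43 in MB002 and 6.45 in HD-MB03 and *SRSF2* at 5.06 in MB002. Of 9 control genes they were 3, 2, 2 and 3. Most genes of these lists are active in any growing cell, and in each list and line fewer of the starts lay inside a region than outside. This also holds for all starts, of which the lines covered 8.28%, 7.53%, 6.38% and 5.89%, so it is not particular to these lists. The splicing factors of MB002 (43.75%) lay above that share, and the ribosomal genes of D425 and UW228 (5%) below it.

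Markers of other cell types were counted last. None of 5 astrocyte, 4 oligodendrocyte and 5 microglia genes on these chromosomes had a start inside a region in any line. MB002 covered 2 of 8 neuronal genes, *STMN2* (0.932) and *SYT1* (1.11), and the other lines none. Of 5 endothelial genes, MB002 covered *CLDN5* and *PECAM1* and HD-MB03 covered *CLDN5*. The counts of MB002 are 25% of the neuronal and 40% of the endothelial list. The lists stand beside the 5.89% to 8.28% of all starts that each line covered, at which a list of 5 genes would hold less than 1, and with lists this short a share of a list moves by several percentage points with each gene.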

How the data were processed

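H3K27Ac and input ChIP-seq of MB002, D425, HD-MB03 and UW228 was used as deposited by the authors. The authors aligned reads to GRCh38 with Bowtie2 2.3.0, converted files with SAMtools 1.9, removed multi-mappers and duplicates, called peaks over input with MACS2 2.2.6 at a q value of 0.05, and stitched and ranked them with ROSE. Bowtie2, SAMtools and MACS2 versions are those of the submitters' processing notes. The methods exclude 2.5 kb around promoters and name a stitching distance of 12.5 kb, while the file headers say 12 kb. The deposited signal is read density per mapped read, times the length of the region. The deposited scores are the rank and the SE call of the authors. Other deposited columns give the number and the summed length of the peaks. Peak positions and read depth were not used here, so no counting error is given, and with stitched regions a start may lie between peaks.

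Values were computed in Python 3.11.15 (scipy 1.17.1, pandas 2.3.3, numpy 2.4.6), and figures with matplotlib 3.10.9. Signal was H3K27Ac minus input, floored at 0. A region contained a start when the start lay between its ends, both included. Relative input density was input per base pair over the median of the line, called high at 5 or more. Lines were the unit of the exact permutation tests, and regions of a line were not treated as replicates. With 4 lines no test could reach 0.05. The measures and tests were checked on simulated data.

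Genes named were the study's vital SE-associated genes, the genes in the 3 start-containing regions of highest signal per line, the 10 of highest density in each class of start (regions of high input left out), and examples from the lists, the 2 highest and the 1 lowest in mean density, besides list members given by name alone or by count. The members and lists were chosen with earlier results of these data known. Some genes and a promoter sequence are not reported here.

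Alternatives were other definitions of a start, regions within 1 kb of a start, 1-peak regions, regions of 2 to 20 kb, the 10000 highest ranked regions, no input subtraction, no high input, chromosomes X and Y, overlap over 50% of the length, and leaving out each line.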

Additional observations from a re-analysis of the deposited data

How the results depend on the processing

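Of 84 recomputed differences, 82 kept the direction of the mean, and 54 of 101 recomputed counts stayed within 1.5 times the value reported. The exceptions were the share of regions with a start, G3-MB minus UW228, at −0.66 percentage points for regions within 1 kb of a start, and the share of regions of 2 or more peaks, at −12.7 percentage points among regions of 2 to 20 kb, and the cause of either was not tested. Sizes moved more than directions. The log2 density difference was 0.28 with the starts of all protein-coding transcripts, 0.17 with all gene types and 0.44 among the 10000 highest ranked regions, and 1.10 among regions of 2 to 20 kb and 1.78 among 1-peak regions. Among the 10000 highest ranked regions its exact sign-flip permutation p was 0.25. Lines that all share a sign give 0.125, so the density difference was not positive in every line there. The same held for the several-peak share (exact sign-flip permutation p = 0.375). The log2 length difference was 1.32 among the 10000 highest ranked and 0.57 among regions of 2 to 20 kb, and the signal difference 1.94 and 1.68. The several-peak share differed by 4.90 percentage points among the 10000 highest ranked, and the SE share by 4.68 among 1-peak regions and 4.77 among regions of 2 to 20 kb. The share of regions with a start, G3-MB minus UW228, was 0.41 percentage points with all protein-coding transcripts, 0.13 with all gene types, 0.31 without HD-MB03, 1.64 among 1-peak regions, 2.18 among the 10000 highest ranked and 3.74 among regions of 2 to 20 kb. The share of signal differed by 20.1 percentage points among 1-peak regions and by 8.37 to 15.3 under the other settings that kept every line.

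Counts moved with the definition of a start. With the starts of all protein-coding transcripts, the start-containing regions numbered 2268, 2144, 1827 and 1906 (MB002, D425, HD-MB03, UW228 here and below), the genes covered 2211, 1895 and 1906 for the last 3 of these lines, those in all 4 lines 301 and those in the G3-MB lines and not UW228 382. With all gene types the regions numbered 2950, 3009, 2106 and 2496, the starts 4460, 4412, 3197 and 3604, and the classes 379 (all lines), 650 (G3-MB) and 2057 (UW228). With 1-peak regions, which are fewer, the regions numbered 272, 195, 399 and 105, the starts 329, 222, 474 and 122, and the classes 4, 29 and 93. With regions of 2 to 20 kb they were 798, 626, 677 and 528, the starts 944, 708, 810 and 607, and the classes 23, 82 and 440. Where shared starts had to lie in regions that overlap over 50% of the length of each, 24 were in all lines and 110 in the G3-MB lines.

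Leaving out a line asks for fewer lines. The starts in all remaining lines then numbered from 150 to 364, the highest without UW228, and those in the remaining G3-MB lines and not UW228 from 328 to 461, with 461 without D425 and 450 without HD-MB03. The differences between start-containing and other regions kept their direction without any line, and the log2 density difference ran from 0.40 without HD-MB03 to 0.76 without UW228.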

Other observations

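Start-containing regions were also rich in starts of non-coding genes. Such a start lay in 41.8% of the start-containing regions of MB002, 40.5% of those of D425, 41.6% of those of HD-MB03 and 41.5% of those of UW228. In the other regions the shares were 6.75%, 7.21%, 7.65% and 7.94%. The start-containing regions were longer, so they had more room for a further start of any kind. The centre of a start-containing region lay inside a protein-coding gene for 66.3%, 65.8%, 73.5% and 65.0% of the regions, against 55.3%, 54.9%, 63.2% and 55.9% of the others. HD-MB03 had the highest share in both sets.

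The starts were unevenly covered over the chromosomes. In MB002 the share of starts inside a region ran from 1.82% on chromosome 21, where 4 of 220 were covered, to 10.6% on chromosome 12, with 110 of 1038. In D425 it ran from 4.09% on chromosome 21 to 11.0% on chromosome 22, in HD-MB03 from 4.16% on chromosome 3 to 8.74% on chromosome 19, and in UW228 from 3.85% on chromosome 8 to 8.56% on chromosome 6. The *SLC35F4* start, which lay in the highest ranked region of MB002, also lay in a D425 region of rank 3796 with a relative input density of 1.48. The *PELI2* start, in the region of rank 4 of HD-MB03, lay in an MB002 region of rank 859 with a relative input density of 0.985. Of the 9 start-containing regions of high input over the 4 lines, 5 were in MB002, and 8 were SEs. The exception was the *MCTS2* region of UW228, at rank 8927.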
